A study of Rattus norvegicus with 12 samples.

Results

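The genes described here carry the insulin signal in the liver or answer to fasting: Insr, Irs1, Irs2, Foxo1, Ppp1r3b, Ppp1r3c, Pdk4, Fgf21, Lpin1 and Gys2. They were taken by name, with every probe set that the platform annotation assigns to that 1 symbol. Of the 10 genes, 9 were measured, by 15 of the 20826 probe sets with 1 symbol; no probe set is assigned to Ppp1r3c, which is not analysed here. The livers came from 12 male Wistar rats, an outbred strain, 5 weeks old per the labels. After 4 days on the basal AIN93G diet, 6 of these rats had received that diet with 20% maple syrup for 11 days, and the other 6 had received it with 20% of a sugar mix syrup as the control. All were fasted for 16 hours before the liver was taken, so both groups were sugar-fed and fasted, and no liver of a fed rat or of a rat without syrup is part of the comparison. The labels give 7 and 8 rats fed maple syrup and sugar mix; the animals beyond 6 per diet were not analysed here.

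In liver, insulin binds its receptor, and the receptor phosphorylates insulin receptor substrates, which start the kinase cascade that ends in Akt. Akt keeps the transcription factor FOXO1 out of the nucleus and favours storage of glucose as glycogen. When insulin is low, as in a fast, FOXO1 stays in the nucleus, and together with PPAR alpha and the cAMP pathway it drives genes that spare glucose and burn fat. Irs2 and Pdk4 are known as genes that insulin holds down, and Fgf21 as a hormone gene under PPAR alpha. Ppp1r3b and Ppp1r3c encode subunits that bring protein phosphatase 1 to glycogen, where it activates glycogen synthase, the product of Gys2 in liver.

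The deposited values are a score whose levels resemble log2 intensities, while differences between animals are far smaller than log2 intensities give (median SD of a named probe set 7.65e-06). No fold change is therefore given. Each value is stated instead as a standardised value, its distance from the probe set's mean over the 12 animals in units of the SD over those animals, and a diet difference as Hedges' g, the mean of maple syrup less that of sugar mix divided by the SD within diets. The medians of the standardised values per array lay between -0.052 and 0.056, so no array had most probe sets shifted far in the same direction. Deviations in both directions cancel in such a median, so it cannot exclude an outlying array. The median deposited value was lowest in maple syrup replicate 6 (7.36619), and lay between 7.36627 and 7.36632 on the other arrays. The 7 measured hepatocyte markers (Alb, Apoa1, Ttr, Serpina1, Fgb, Apoh and Hpx) had levels between 14.06 and 15.21. Of the 5 adipocyte and 5 skeletal muscle markers, 2 and 0 lay above the median level of the named probe sets, 7.68; the 2 were Cidec and Cfd. Of the 7 pancreas markers 2 lay above it, Cela1 (10.07) and Ins1 (7.75), and the other 5 below it. The labels call the arrays biological replicates.

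The promoter table from RefSeq (build GRCr8, 250 bases before to 50 after the start of a gene) held 8 of the 10 genes; Irs2 and Ppp1r3b had no entry. Windows with a match to a motif linked to insulin or fasting are shown for 4 measured genes, 5′ to 3′ on the gene's own strand, with the match in capitals. The motifs were chosen with the sequences in view and searched on both strands: the forkhead core TGTTTAC, bound by FOXO factors; the nuclear receptor repeat, of the kind PPAR alpha binds, made of AGGTCA, any 1 base and then AGGNCA; the cAMP response element TGANGTCA; the E-box CACGTG; and the TATA box TATAAA. No 2 matches overlapped.
Insr, chr12:6128754-6129053, minus strand: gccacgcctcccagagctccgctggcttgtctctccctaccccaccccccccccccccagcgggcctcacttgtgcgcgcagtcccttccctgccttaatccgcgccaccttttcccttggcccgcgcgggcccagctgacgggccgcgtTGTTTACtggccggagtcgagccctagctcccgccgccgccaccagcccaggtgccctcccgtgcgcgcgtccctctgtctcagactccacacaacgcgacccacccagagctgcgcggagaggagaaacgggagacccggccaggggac
Lpin1, chr6:45108893-45109192, minus strand: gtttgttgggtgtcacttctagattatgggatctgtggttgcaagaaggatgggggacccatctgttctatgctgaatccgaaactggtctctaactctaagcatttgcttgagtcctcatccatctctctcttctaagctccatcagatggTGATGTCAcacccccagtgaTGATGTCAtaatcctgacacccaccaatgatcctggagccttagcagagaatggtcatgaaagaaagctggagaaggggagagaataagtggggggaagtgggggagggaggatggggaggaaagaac
Fgf21, chr1:105221327-105221626, minus strand: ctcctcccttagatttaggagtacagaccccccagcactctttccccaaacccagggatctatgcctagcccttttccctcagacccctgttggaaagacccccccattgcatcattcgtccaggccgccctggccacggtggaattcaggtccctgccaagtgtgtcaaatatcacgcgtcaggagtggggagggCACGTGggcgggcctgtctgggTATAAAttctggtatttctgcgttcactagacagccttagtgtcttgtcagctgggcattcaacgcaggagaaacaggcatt
Gys2, chr4:177137187-177137486, minus strand: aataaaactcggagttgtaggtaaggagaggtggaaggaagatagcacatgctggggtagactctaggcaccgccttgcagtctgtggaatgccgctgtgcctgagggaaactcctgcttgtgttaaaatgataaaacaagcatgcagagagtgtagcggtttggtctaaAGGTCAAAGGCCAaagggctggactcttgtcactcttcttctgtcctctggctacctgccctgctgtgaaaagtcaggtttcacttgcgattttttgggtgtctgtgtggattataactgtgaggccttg
In the receptor gene Insr the forkhead core TGTTTAC lay at -100 to -94 from the start site; 3.78% of the 33469 promoters of this length hold it. Lpin1 had the looser form of the cAMP element as TGATGTCA at -98 to -91 and again at -78 to -71 (10.2% of promoters hold TGANGTCA). Both matches have T at the open base, where the usual element has C. Fgf21 had the E-box CACGTG at -54 to -49 (6.42% of promoters) and the TATA box at -32 to -27 (14.2%). Gys2 had the nuclear receptor repeat at -80 to -68, in capitals above, which 0.155% of promoters hold. None of these letters was found in the windows of Foxo1, Pdk4 and Irs1, and an E-box was found in that of Ppp1r3c. A match is a description of letters; binding was not measured.

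The members differed most in how far they varied between animals. Ppp1r3b, the glycogen-targeting subunit, had a mean level of 8.24 and an SD of 0.0159 over the 12 livers, which placed it at percentile 99.7 of the SDs of all named probe sets; its deposited values ran from 8.217 to 8.274. Its other probe set, at a mean level of 6.99, was at percentile 99.4. Pdk4, the kinase that shuts pyruvate out of the citric acid cycle, had levels of 11.66 and 9.64 in its 2 probe sets and an SD at percentile 99.4 in both. Fgf21, a liver hormone of fasting, had a level of 10.19 and an SD at percentile 99.3. Gys2, liver glycogen synthase, had a level of 10.65 and an SD at percentile 98.4. Lpin1, a phosphatidate phosphatase that also acts with PPAR alpha in the nucleus, had levels of 9.49 and 9.01 and SDs at percentiles 97.9 and 98.0. Irs2, the receptor substrate that follows nutritional state, had a level of 9.11 and an SD at percentile 96.2. These 9 probe sets of 6 genes were in the top 5% of SDs. The receptor Insr (levels 8.72 and 7.74) was at percentiles 80.4 and 83.2, the substrate Irs1 (level 7.20) at 89.7, and the factor Foxo1 (levels 8.28, 7.39 and 6.84) at 86.7, 43.7 and 45.6. Brightness depends on the probes as well as the RNA, so levels are not compared between genes. The scale compresses differences by an unknown amount that may differ between probe sets, and its part in the rank of SDs was not tested.

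**Figure D1:**
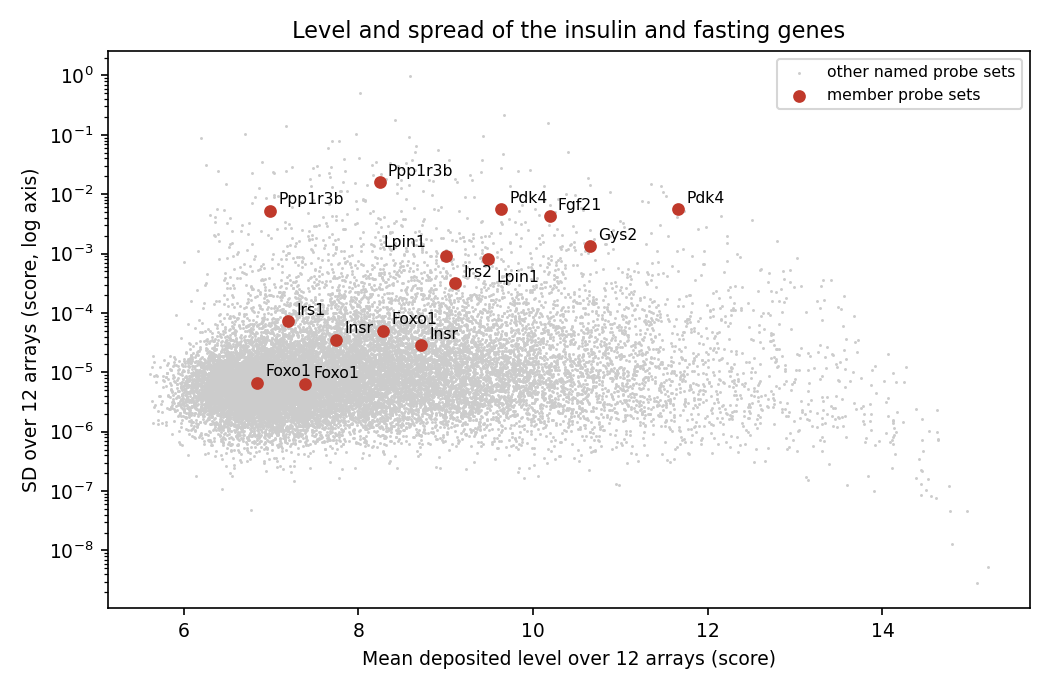
Mean deposited level of each named probe set over the 12 arrays (horizontal axis, score) against its SD over those arrays (vertical axis, score, log scale); grey points are other named probe sets and red points the 15 member probe sets, labelled by gene. The probe sets of Ppp1r3b, Pdk4, Fgf21, Gys2, Lpin1 and Irs2 lie above the dense part of the cloud, and 2 of the 3 Foxo1 probe sets lie within its bulk.

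Probe sets of 1 gene followed each other across the animals where their spread was wide. The correlation over the 12 animals was r = 0.98 (rho = 1.00) for the pair of Lpin1, r = 0.92 for Ppp1r3b and r = 0.89 for Pdk4. It was r = 0.59 for Insr. The brightest Foxo1 probe set had r = 0.65 with the one at level 7.39 and r = -0.082 with the one at level 6.84, and the latter 2 had r = -0.14. Over the whole array the median r between probe sets of the same gene was 0.18 in the 7208 pairs whose smaller SD was under 1e-05, 0.61 in 2108 pairs from there to 1e-04, 0.89 in 228 pairs from there to 0.001 and 0.97 in the 53 pairs above. The values of Insr and Foxo1 are thus read with less certainty than those of Lpin1, Ppp1r3b and Pdk4.

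The diets were compared to ask whether insulin and fasting genes differed between livers of rats on maple syrup and on the sugar mix. None of the 15 member probe sets passed the test, and the values of both diets overlapped in each (0.096% of all probe sets had diets that did not overlap). By sign, 8 had a g below 0 (background 51.3%) and 7 above, and 7 had a g of a size over 0.5 (background 34.4%). In limma with Benjamini-Hochberg adjustment over all 20826 probe sets, 0 of the 15 were called in either direction, at a background of 0% of probe sets called higher and 0% called lower; the adjusted p was 0.9998 for each. At an unadjusted p of 0.05, 0 of the 15 were counted in limma (background 4.19%) and 0 in the exact permutation test (background 4.08%). In that test over all arrangements of the animals, two-sided, the smallest p for a member was 0.0801, where the design allows 0.00216. Adjusted over all probe sets it was 1 for each member. With that floor and 20826 probe sets, an adjusted p under 0.05 would need a large number of probe sets at the floor. The adjusted permutation p therefore says little about the members. All 15 intervals of g included 0. The median size of g, regardless of sign, was 0.49 over the members and 0.35 over all probe sets. In simulated data with 6 animals per diet, a small share of probe sets was shifted and all were independent. After adjustment limma recovered 24.5% of probe sets shifted by 3 SD, 4.97% of those shifted by 2 SD and 0.297% of those shifted by 1 SD. Differences of the size seen here would mostly be missed at that setting. Recovery depends on the share of shifted probe sets as well as on the number of animals. The number of arrays limits the precision.

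At the top of the pathway, the receptor and its substrates gave intervals that included 0. Insr, the insulin receptor, ran from -1.39 to 1.88 (median -0.37) with the sugar mix and from -1.29 to 1.06 (median 0.45) with maple syrup in its brighter probe set. Sugar mix replicate 5 was the highest, and when each maple syrup animal was set against each sugar mix animal, the former was higher in 26 of 36 pairs. The g was 0.49 (95% interval -0.59 to 1.54), against -0.055 (-1.10 to 0.99) in the other probe set, so the 2 probe sets gave no common direction. Irs1, the substrate that links the receptor to lipid and growth responses, ran from -0.34 to 1.60 (median 0.27) with the sugar mix and from -2.35 to 0.40 (median -0.23) with maple syrup. Its low value came from maple syrup replicate 6 alone, since the other 11 animals were at -0.34 or above. The g of Irs1 was -0.92 (95% interval -2.02 to 0.22), with maple syrup higher in 12 of 36 pairs. Irs2 ran from -0.65 to 1.58 (median 0.36) with the sugar mix and from -1.83 to 1.30 (median -0.32) with maple syrup. Its g was -0.66 (95% interval -1.73 to 0.44), also with maple syrup higher in 12 of 36 pairs.

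Of the nuclear factors, Lpin1 had the smallest p of the members. In the brighter probe set the sugar mix animals ran from -1.55 to 1.12 (median -0.95) and the maple syrup animals from -0.34 to 1.31 (median 0.29). Sugar mix replicates 1, 2, 4 and 6 were the 4 lowest of the 12 animals, between -1.55 and -0.87, while replicates 3 and 5 were at 1.12 and 0.93. Maple syrup was higher in 28 of 36 pairs in both probe sets, with g = 0.82 (95% interval -0.30 to 1.91) and g = 1.04 (-0.12 to 2.15). The exact permutation p was 0.149 and 0.0801 before adjustment. Foxo1, the factor that insulin keeps out of the nucleus, gave no common direction over its probe sets: g was 0.055 (95% interval -0.99 to 1.10) in the brightest, 0.48 (-0.59 to 1.54) in the next and -1.03 (-2.14 to 0.13) in the dimmest. In the brightest the sugar mix ran from -1.21 to 1.58 (median -0.20) and maple syrup from -0.74 to 1.82 (median -0.54). Sugar mix replicate 5 and maple syrup replicate 6 were the highest of their diets.

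**Figure D2:**
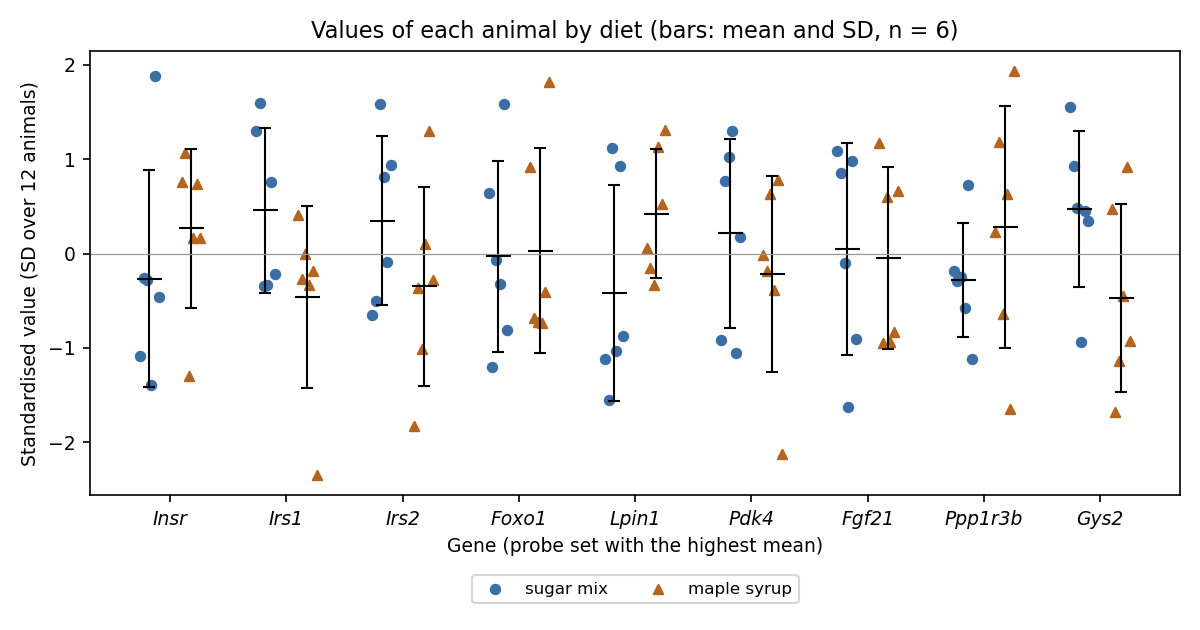
Standardised value (vertical axis, SD over 12 animals) of each animal for the 9 measured genes, 1 probe set a gene; blue circles are the 6 sugar mix and brown triangles the 6 maple syrup animals, and bars give the mean and SD of a diet. The diets overlap in every gene, and maple syrup replicate 6 is the low triangle of Irs1 (-2.35) and Pdk4 (-2.12) and the high one of Ppp1r3b (1.94).

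The fasting targets Pdk4 and Fgf21 had a g below 0 with intervals that included 0. Pdk4 ran from -1.06 to 1.30 (median 0.47) with the sugar mix and from -2.12 to 0.78 (median -0.099) with maple syrup. Maple syrup replicate 6 was the lowest, and the next lowest animals were sugar mix replicates 5 and 1. The g was -0.39 (95% interval -1.44 to 0.68), and -0.46 (-1.51 to 0.62) in the other probe set, with maple syrup higher in 13 and 11 of 36 pairs. Fgf21 ran from -1.63 to 1.09 (median 0.38) with the sugar mix and from -0.95 to 1.17 (median -0.12) with maple syrup, with 16 of 36 pairs higher. Its g was -0.088 (95% interval -1.13 to 0.96). In Fgf21 the animals of both diets fell on both sides of a gap, 5 of them at -0.83 or below and 7 at -0.095 or above. Such a gap was not particular to Fgf21. Its width was 0.74, and Gys2 had one of 0.80 that also left 5 animals below and 7 above.

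The glycogen genes gave g of opposite signs, and neither interval excluded 0. Ppp1r3b ran from -1.11 to 0.72 (median -0.27) with the sugar mix and from -1.65 to 1.94 (median 0.43) with maple syrup. The maple syrup animals held both the highest value, in replicate 6, and the lowest, in replicate 5, and their SD was 1.28 against 0.60 with the sugar mix; this difference in spread was not tested. The g was 0.52 (95% interval -0.56 to 1.57), and 0.30 (-0.76 to 1.34) in the other probe set. Gys2 ran from -0.94 to 1.55 (median 0.47) with the sugar mix and from -1.68 to 0.92 (median -0.69) with maple syrup. Of the maple syrup animals, 4 were at -0.46 or below, and of the sugar mix animals only replicate 4 was. The g of Gys2 was -0.95 (95% interval -2.05 to 0.19), with maple syrup higher in 9 of 36 pairs and an exact permutation p of 0.113 before adjustment.

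**Figure D3:**
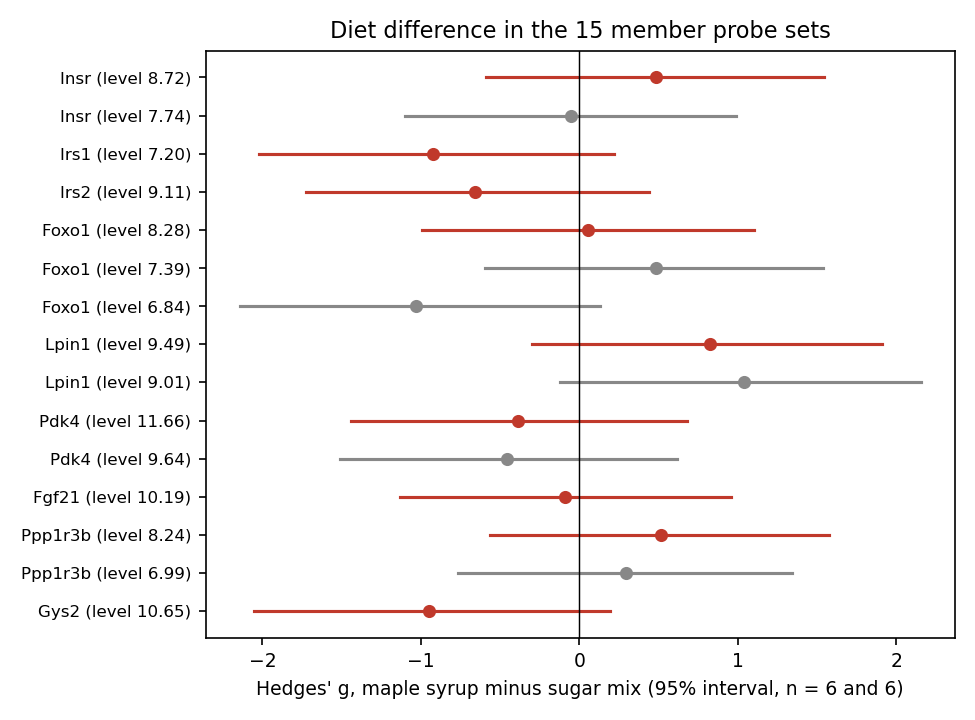
Hedges' g of maple syrup minus sugar mix (horizontal axis) with its 95% interval for the 15 member probe sets, 6 animals per diet; red marks the brightest probe set of a gene and grey the others, labelled with the mean level. Every interval crosses 0, both Lpin1 probe sets lie to the right (0.82 and 1.04), and the probe sets of Foxo1 and Insr do not share a side.

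Whether these genes order the fasted livers along 1 axis was asked with the first principal component of the 9 measured genes, using the brightest probe set of each and turning the sign so that Irs2 is positive. That component held 39.6% of the variance, the next 26.3% and the third 14.7%, so no component held most of it. With 9 genes a first component holds at least 11.1% by construction, a floor reached only if no 2 genes correlate at all. Over all 14217 named genes it held 16.2%. The share depends on the number of genes, so neither value is a background for 39.6%. A background for 9 genes was not computed. The median size of the correlation between members was 0.38 over their 36 pairs, against 0.23 over all pairs of named genes. At a size of at least 0.6 were 4 of 36 member pairs (11.1%), against 5.48% of all pairs. The median SD of the member probe sets was at percentile 97.9. Probe sets of small spread correlated less even within a gene, so all pairs are not a matched background. A background of genes with a like spread was not computed. Pdk4 (weight 0.46) stood at the high end, and Ppp1r3b (-0.46), Foxo1 (-0.44), Lpin1 (-0.35) and Insr (-0.30) at the low end. Fgf21 (-0.25), Irs1 (0.23), Irs2 (0.21) and Gys2 (0.11) had smaller weights. Each gene was also set against the axis of the other 8: r was 0.76 for Pdk4, -0.73 for Ppp1r3b and -0.67 for Foxo1, and lay between -0.45 and 0.26 for the other 6 genes. Leaving out the 2 animals farthest from the middle of that axis, r was 0.38 for Pdk4, -0.49 for Ppp1r3b and -0.19 for Foxo1. Leaving out the ends of an axis narrows its range, which by itself tends to lower r. How far the relation rests on those animals was therefore not settled by this step.

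The order from the high end was sugar mix replicates 4 (1.16), 6 (0.95) and 2 (0.95), maple syrup replicates 5 (0.76) and 3 (0.49), sugar mix replicates 3 (0.34) and 1 (0.081), maple syrup replicates 4 (-0.24), 2 (-0.37) and 1 (-0.69), sugar mix replicate 5 (-1.30) and maple syrup replicate 6 (-2.14). In the brightest probe sets the last 2 animals had the lowest Pdk4 (-1.06 and -2.12) and the highest Foxo1 (1.58 and 1.82), with Ppp1r3b (0.72 and 1.94) and Lpin1 (0.93 and 1.31) above the mean. In the dimmer Pdk4 probe set sugar mix replicate 5 was at -0.36, and sugar mix replicate 1 was the lowest (-1.66). By diet, the score ran from -1.30 to 1.16 (median 0.65) with the sugar mix and from -2.14 to 0.76 (median -0.30) with maple syrup, with g = -0.69 (95% interval -1.77 to 0.41) and maple syrup lower in 27 of 36 pairs. Without maple syrup replicate 6 the g of the score was 0.099, and the new axis had r = 0.78 with the old one over the remaining 11 animals. Without both low-end animals, a choice made after the scores had been seen, the first component held 35.7%, had r = 0.36 with the old axis and gave its largest weights to Fgf21 (-0.50), Irs1 (-0.48) and Irs2 (0.42). Leaving out the low end also takes away variance along the old axis, so part of this change is built in. With any 1 animal but maple syrup replicate 6 left out, the new axis had r of at least 0.98 with the old one. With any 1 gene left out r was at least 0.96, and on ranks it was 0.97. Such axes share most of their data, so a high r is partly built in. The axis changed most without maple syrup replicate 6 or both low-end animals. A stable single order of the 12 livers was thus not shown apart from those animals.

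**Figure D4:**
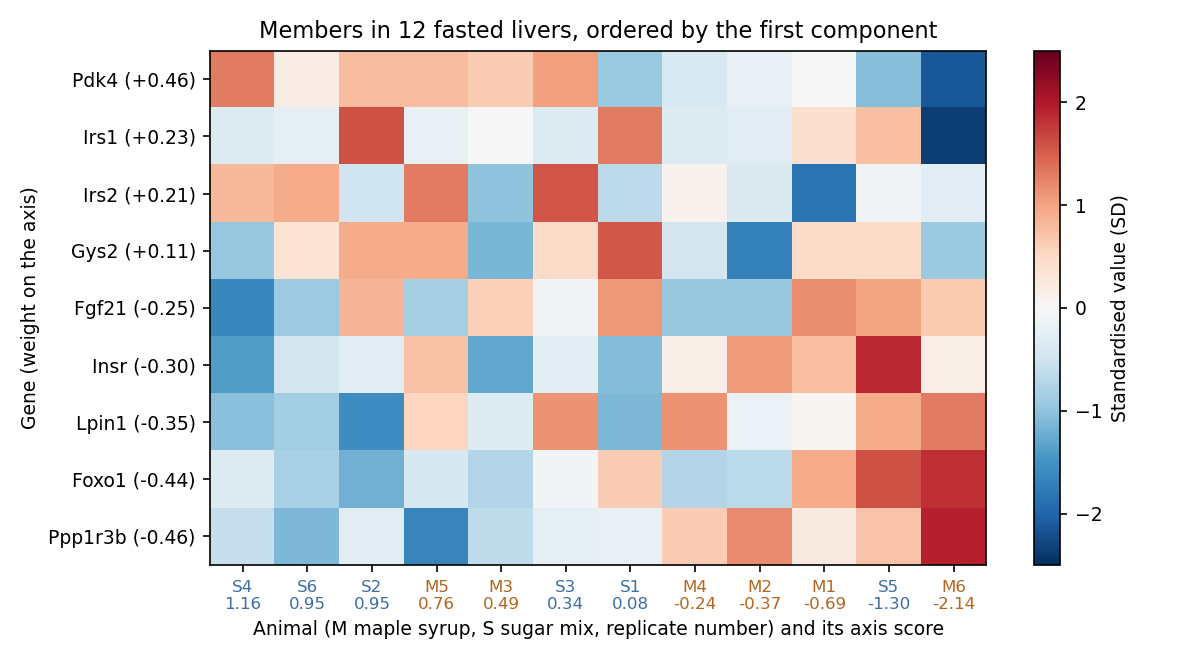
Standardised values (colour, SD over 12 animals) of the 9 measured genes (rows, with their weight on the first component) in the 12 animals (columns, M for maple syrup and S for sugar mix with the replicate number), ordered by axis score from 1.16 to -2.14. The pattern of low Pdk4 with high Foxo1 and Ppp1r3b is strongest in the 2 columns at the right, S5 and M6.

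Among the 36 gene pairs, given as a description with no p, the most negative correlation was that of Ppp1r3b with Pdk4: r = -0.75 and rho = -0.76 over the 12 animals. It was -0.55 within the sugar mix and -0.88 within maple syrup (6 animals each), and lay between -0.80 and -0.58 with each animal left out. Over the 4 combinations of their probe sets r ran from -0.77 to -0.54, and it was -0.56 without the 2 animals farthest in Ppp1r3b. Foxo1 and Pdk4 had r = -0.73 but rho = -0.43, and r = -0.35 without the 2 farthest animals; with the dimmer Pdk4 probe set it was -0.49. The middle Foxo1 probe set gave r = -0.72 and -0.60 (rho = -0.64 and -0.69), and the dimmest gave 0.19 and 0.41 with the brighter and the dimmer of Pdk4. Irs2 and Fgf21 had r = -0.66 and rho = -0.59. Here r was -0.73 within the sugar mix and -0.76 within maple syrup, -0.71 without the 2 farthest animals, and between -0.75 and -0.60 with each animal left out. The 5 animals with Fgf21 at -0.83 or below had Irs2 at -0.36 or above, and the 2 animals with the lowest Irs2, maple syrup replicates 1 and 3, had Fgf21 at 1.17 and 0.60. Irs1 and Gys2 had r = 0.61 (rho = 0.52; 0.73 and 0.32 within the sugar mix and maple syrup). Irs2 and Pdk4, both known to be held down by insulin, had r = 0.38 (rho = 0.40), and Irs1 and Irs2 had r = -0.27 (rho = -0.55).

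**Figure D5:**
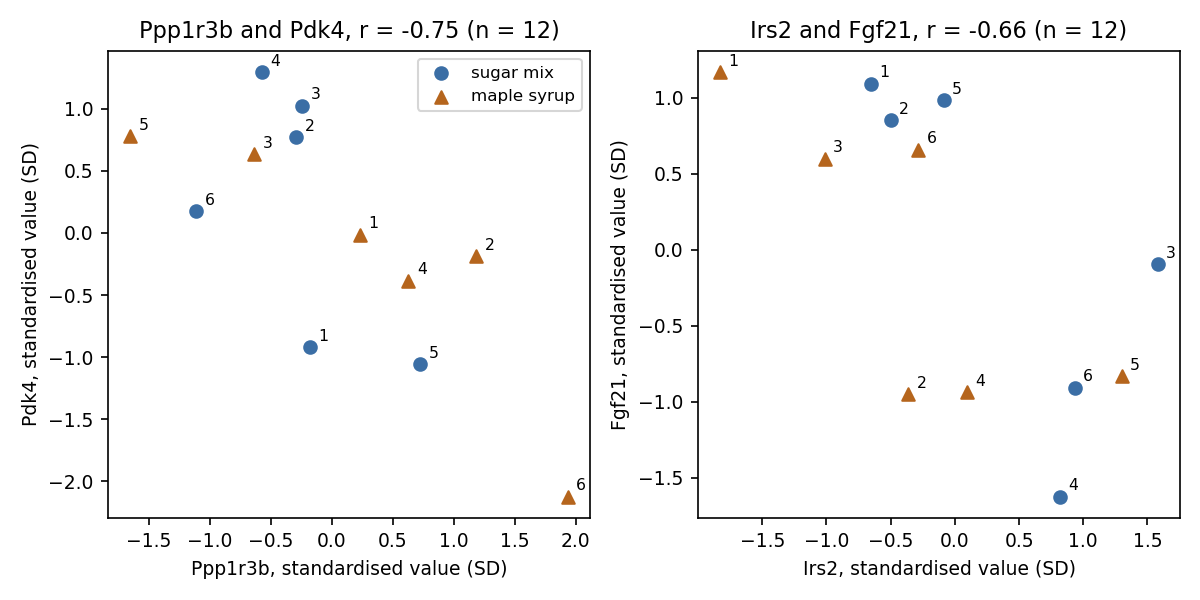
Standardised values (SD over 12 animals) of Ppp1r3b against Pdk4 on the left and of Irs2 against Fgf21 on the right; each point is 1 animal, labelled with its replicate number, blue circles for sugar mix and brown triangles for maple syrup. Points run from upper left to lower right in both plots (r = -0.75 and -0.66), with maple syrup replicate 6 at the far lower right of the left plot.

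The axis was set beside measures of the arrays. Its correlation with the first component of all named genes was r = 0.17 (rho = 0.16; -0.29 without the 2 farthest animals) and with the arrays' median standardised value r = -0.13 (rho = -0.077; -0.40 without the 2 farthest animals). Of the array's RNA controls, the 5′ probe set of hexokinase had r = -0.67 with the axis (rho = -0.78; -0.70 without the 2 farthest animals), that of beta-actin -0.41 (rho = -0.41; -0.17) and that of GAPDH -0.35 (rho = -0.31; -0.13). The 3′ hexokinase probe set had r = -0.31 (rho = -0.077, and -0.016 without the 2 farthest animals). The 3′ probe set of beta-actin had r = -0.070 (rho = -0.14, and 0.030), and that of GAPDH -0.19 (rho = -0.27, and -0.13). Between the diets, the 3′ probe sets of GAPDH and beta-actin had g = -1.02 and -0.95, and their 5′ probe sets -0.75 and -0.52. Those of hexokinase had g of the other sign, 0.72 (3′) and 0.41 (5′). The part of RNA quality in the axis and in the diet values was not tested. The mean standardised values of the 8 marker lists had r between -0.32 (hepatocyte) and 0.13 (cholangiocyte) with the axis, and between -0.47 (pancreas) and 0.51 (cholangiocyte) without the 2 farthest animals. Of 6 measured macrophage and Kupffer cell markers, 5 were lower in maple syrup by the sign of g (background 52.9% of genes) and 0 were called. Their mean standardised value lay between -0.26 and 0.75 in the sugar mix and between -1.41 and 0.77 in maple syrup. It had r = -0.020 with the axis (0.33 without the 2 farthest animals). The part of these markers in the diet values above was not tested. In whole liver, fewer cells of a type and less RNA per cell cannot be told apart.

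The genes whose pattern was most like the axis were named by Pearson's r over the 12 animals, as a description picked from all named genes that are not members. The 5 highest were Mapk12 (r = 0.90), Fmnl3 (0.90), Rgs4 (0.90), Ier5 (0.89) and Aar2 (0.88), and the 5 lowest were Tmem38b (-0.92), Slc25a32 (-0.89), Baiap2 (-0.89), Mrpl38 (-0.88) and Shld2 (-0.88). A second probe set followed for Shld2 (-0.92), Tmem38b (-0.58) and Slc25a32 (-0.57), but not for Rgs4 (0.21) or Aar2 (-0.23). The other probe sets were mixed for Ier5 (0.47 and -0.16) and Baiap2 (-0.69 and 0.16). Over all named genes that are not members, 2.39% had an r of a size over 0.7 with the axis.

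Other genes of the pathway, in 9 lists with 128 measured of 142 genes, did not pass either. Each of these genes was read from its brightest probe set alone, here and in the lists below. In limma 0 of 128 were called higher and 0 lower (background 0% of genes). By sign, 70 had a g above 0 and 58 below, and the median g was 0.088, against -0.039 over all 14217 genes. Over all genes 52.9% had a g below 0, which is also the background for the sign counts of each list below. By limma's unadjusted test 11 of 128 (8.59%) were counted, against 4.24% of all genes, and none of these 11 passed the adjustment (limma's adjusted p was 0.9998 for each). With 1 animal left out this count ran from 6 (without sugar mix replicate 3) to 18 (without sugar mix replicate 6), and it was 7 without sugar mix replicate 5. Over all 219 probe sets of the listed genes 15 were counted, against 4.19% of all probe sets. With the axis, 2 of 128 (1.56%) had an r over 0.7 in size, against 2.39% of all genes, and both were named after their values had been seen: Ppara, the fasting receptor for fatty acids (r = -0.81, rho = -0.76; -0.67 without the 2 farthest animals), and Klf15, a factor of fasting amino acid use (r = -0.77, rho = -0.76; -0.50). Both correlated with the axis in the direction of Ppp1r3b and opposite to Pdk4.

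Of the 20 measured genes of the receptor cascade 11 had a g above 0 and 9 below, with a median g of 0.097. Pdpk1, a kinase that activates Akt, had g = 0.96 (95% interval -0.18 to 2.06), and the adaptor Shc1 had g = -0.89 (-1.98 to 0.25). Of 13 brakes on insulin signalling 8 were above 0 and 5 below. Socs3, an inhibitor of cytokine and insulin receptors, had g = -1.53 (95% interval -2.74 to -0.27), and Trib3, an Akt-binding pseudokinase, had g = 0.88 (-0.25 to 1.98). Among FOXO factors, partners and targets 12 of 17 were above 0, with a median g of 0.29. Pck1, a gluconeogenic enzyme that FOXO1 drives, had g = -1.91 (95% interval -3.22 to -0.55), and Foxo4, another FOXO factor, had g = -1.39 (-2.57 to -0.16).

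Of 17 PPAR alpha targets 8 had a g above 0 and 9 below. Vnn1, a pantetheinase induced by PPAR alpha, had g = 1.57 (95% interval 0.30 to 2.79), and Acadm, which oxidises medium-chain fatty acids, had g = 1.54 (0.27 to 2.75). Of 20 genes of glycogen metabolism 11 were above 0. The branching enzyme Gbe1 had g = 1.39 (95% interval 0.16 to 2.57), and Pgm1, which interconverts glucose phosphates, had g = 1.60 (0.32 to 2.82). Of 11 genes induced by insulin and feeding 5 were above 0 and 6 below. Srebf1, the lipogenic factor that insulin induces, had g = -1.32 (95% interval -2.49 to -0.11), and Me1, malic enzyme, had g = 1.32 (0.11 to 2.49), so these feeding genes did not share a sign.

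Of 7 relatives of the members 3 were above 0; Lpin3, a paralogue of Lpin1, had g = -1.08 (95% interval -2.21 to 0.083), and Pdk1, a paralogue of Pdk4, had g = 0.82 (-0.30 to 1.91). Of 12 genes of AMPK and glucagon signalling 4 were above 0; Prkag2, an AMPK subunit, had g = -1.20 (95% interval -2.34 to -0.011), and Pde4b, which breaks down cAMP, had g = -0.74 (-1.82 to 0.37). Of 12 clock genes 8 were above 0; Tef, a clock output factor, had g = 1.16 (95% interval -0.024 to 2.29), and Nr1d2, a repressor of the clock, had g = 0.80 (-0.32 to 1.88). The genes named from these lists were those with the smallest p of each list, so their g may be too large. For Pck1, Acadm, Foxo4, Pgm1, Socs3, Prkag2, Pdpk1 and Lpin3 the SD over animals was under 1e-05, in the range where probe sets of 1 gene followed each other least.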

How the data were processed

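Total RNA (2 ug) from 12 livers, 6 per diet as the labels' titles give them, was biotin-labelled and put on Affymetrix arrays, as the labels' protocols state. The authors deposited a processed score for each of 31099 probe sets; how it was summarised and normalised is not given in the sources used here. The platform annotation, with symbols updated through RefSeq, gave 1 symbol for 20826, several for 436 and none for 9837; the array's 57 control probe sets were left out. The design had assumed log2 values, and its test was kept. That test combines each probe set's own spread with a prior shared between probe sets. For probe sets of small spread its p can differ from that of the permutation test. Pgm1, for example, had an unadjusted p of 0.0438 in limma and 0.0108 in the exact permutation test. For the diets, limma 3.58.1 (R 4.3.3) was fitted with lmFit and eBayes, its prior following the level, with Benjamini-Hochberg adjustment over all 20826, on the deposited values without a filter, and an exact permutation test was run on each probe set. In tests on simulated data of this comparison over 20826 probe sets, 32 of 427 limma calls were false. Intervals of Hedges' g come from the noncentral t distribution.

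The members and gene lists were chosen with earlier results of these data known. Named were all member probe sets, the 2 genes of smallest p in each list and the 5 highest and 5 lowest correlations with the axis. Correlations carry no p. Alternatives were quantile normalization, centring, a filter on the dimmest 30%, other probe set rules and variance models, array weights, the replicate block, and genes or arrays left out. Same-numbered animals of the diets had correlations of residuals between -0.043 and 0.12, so the numbers were not taken as pairs. Figures were drawn with matplotlib 3.10.9.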

Additional observations from a re-analysis of the deposited data

Results flagged for a closer look

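Of 32 combinations of a diet with a member probe set or the axis score, 2 held a single animal well apart from the rest of the group; about 1.6 such cases are to be had by chance. Irs1 was at -2.35 in maple syrup replicate 6, with the other maple syrup animals at -0.34 or above. The brighter Insr probe set was at 1.88 in sugar mix replicate 5. These 2 animals are also the 2 at the low end of the axis. Irs1 (weight 0.23) and this Insr probe set (weight -0.30) are part of the axis, so this is in part built in.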

How the results depend on the processing

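With each alternative run, 0 of the 15 member probe sets and 0 of the pathway genes were called at an adjusted p of 0.05. The share of the first component was 44.1% without Gys2, lay between 35.4% (ranks) and 43.2% (without Irs2) for the other choices of probe sets, genes and centring, and ran from 38.4% to 42.8% with 1 animal left out. With 1 animal left out, the g of the axis score ran from -1.25 (without sugar mix replicate 5) to 0.099 (without maple syrup replicate 6). Up to 2 of the 15 member probe sets had an unadjusted limma p under 0.05 in some alternatives: Lpin1 (dimmer) and Gys2 with array medians subtracted or the 4th root, Gys2 after quantile normalization, and 1 or 2 of Lpin1, Gys2, Insr (brighter) and Foxo1 (dimmest) without sugar mix replicate 3, 4 or 5 or maple syrup replicate 3 or 5. The smallest was 0.0123, for Lpin1 in limma without sugar mix replicate 3. The moderated t of some probe sets turned sign, and the cause was not tested. That of the brightest Foxo1 probe set was 0.11, against -0.37 after quantile normalization and -0.038 with array weights. With array medians subtracted, that of the dimmest Foxo1 probe set was 0.21 and that of the dimmer Insr probe set 0.24. Near the array median, neighbouring sorted values lay a median of 6.46e-05 apart. Medians over all deposited probe sets spanned 1.32e-04 between arrays. That is more than the full range of these 2 probe sets over the animals, 2.57e-05 and 1.07e-04. Subtracting array medians moved the median t over all probe sets from -0.030 to 0.25 and the unadjusted count from 873 to 90. With 1 animal left out, t ran from -0.81 to 0.18 for Fgf21, from -0.57 to 0.71 for the brightest Foxo1, from -0.79 to 0.32 for the dimmer Insr and from -0.092 to 1.20 for the dimmer Ppp1r3b probe set. Same-numbered animals of the diets share only a number, and 0 of 6 pairs correlated best with their own; with the replicate block the unadjusted count was 912, the mean difference of the axis score within pairs, divided by the SD of those differences, was -0.36, and no call changed. The alternatives without both low-end animals (35.7%, g = 0.18) and without Foxo1 and Insr together (39.4%, g = -1.01) were chosen after seeing the data.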

Other observations

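Irs1, the receptor substrate, had further relations with other members, given over 12 animals with no p. Irs1 and Lpin1 had r = -0.60 (rho = -0.65), and r = -0.23 without the 2 animals farthest in Irs1. Irs1 and Fgf21 had r = 0.36 (rho = 0.62), and r = 0.78 without maple syrup replicate 6, the animal with the lowest Irs1. Within the sugar mix this pair had r = 0.85, and within maple syrup r = -0.10, with 6 animals each; the difference between the diets was not tested. Irs1 and Irs2, the substrates that share the receptor, had r = -0.95 within the sugar mix and r = -0.24 within maple syrup, also untested. Insr and Lpin1 had r = 0.54 (rho = 0.50), and r = 0.40 without the 2 farthest animals.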
